A study of Homo sapiens with 24 samples.

Results

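HuCCT1 cells exposed to 10 µM sorafenib for 72 h were compared with HuCCT1 cells that received vehicle only. HuCCT1 is an established cell line from an intrahepatic cholangiocarcinoma, a cancer of the bile ducts inside the liver, and was grown in RPMI-1640 with serum. The comparison took the 3 libraries labelled 10 µM sorafenib and the 3 labelled vehicle control, 6 of the 24 bulk RNA-seq libraries in the series, and it was described across all genes with a symbol or an identifier in the count table. The vehicle was DMSO, kept to 0.1% or less, the treated cells received sorafenib alone, and the labels call the 3 libraries of each group independent biological replicates. The other HuCCT1 arms, each with 3 libraries, received 1.25 µM sorafenib or 1.25 µM sorafenib with 1 µM of the complex I inhibitor IACS-010759, and the second line, OCUG-1, was given the same 4 treatments in DMEM. One established line grown in culture stands for the tumour here, so replicates are cultures of that line and not separate patients.

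Sorafenib is an oral kinase inhibitor that blocks RAF kinases and receptor tyrosine kinases such as the VEGF and PDGF receptors, and it is also known to disturb mitochondria. RAF passes growth signals from RAS to MEK and ERK, which drive transcription of cyclins and of feedback inhibitors such as the DUSP and SPRY genes. Type I interferon signalling runs from receptor to the kinases JAK1 and TYK2, then to STAT2 and IRF9, which help bind the interferon-stimulated response element in promoters of antiviral genes. Tumour lines can keep a basal level of these antiviral genes without added interferon.

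The 6 libraries held between 18272014 and 29958426 counts in genes. Genes encoded by mitochondrial DNA took 11.8%, 14.1% and 7.08% of counts in the vehicle libraries and 9.72%, 11.6% and 8.32% at 10 µM, and an exact permutation test (two-sided) of the difference gave p = 0.7, where 3 against 3 libraries cannot go below 0.1. Replicate 3 differed most from the other replicates in both groups, and the first principal component of the 6 libraries (47.3% of the variance) separated the groups. All 14 biliary markers passed the filter on low counts, with a summed level of 9799 to 11625 CPM (counts scaled to a common library size) with vehicle and 7631 to 10217 CPM at 10 µM. Markers of other cell types were lower in sum: the 10 hepatocyte markers lay between 169 and 194 CPM with vehicle and between 169 and 225 CPM at 10 µM, and the 8 fibroblast markers between 43.0 and 60.1 CPM and between 37.8 and 49.4 CPM. The summed endothelial markers lay between 3.21 and 4.31 CPM with vehicle and between 6.02 and 8.29 CPM at 10 µM, the summed immune markers lay between 2.70 and 3.54 CPM in all 6 libraries, and ALB, COL1A2, CDH5 and CD3E each had fewer than 10 counts over the 6 libraries. In bulk RNA, fewer cells that express a gene and less RNA per cell cannot be told apart.

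At 10 µM, HuCCT1 cells held less RNA of interferon-stimulated antiviral genes, clustered histones, and part of the mucins and retinoid-response genes. They held more RNA of the mitotic spindle, of DNA replication and of DNA repair by recombination. Of 19576 genes tested, 4747 (24.2%) passed an adjusted p under 0.05 in edgeR's quasi-likelihood test with Benjamini-Hochberg adjustment; 2554 (13.0%) were higher and 2193 (11.2%) lower. These shares are the background against which the counts of gene lists below were read. Protein-coding genes are the nearer background for these lists. Of 13436 tested, 16.6% were higher and 13.3% lower. At least a 2-fold change was called for 744 higher and 520 lower genes, and at least a 4-fold change for 72 and 82. The median log2 fold change over all genes tested was 0.009. CPM values are given as the value of each library or as mean ± SD over 3 libraries, and log2 fold changes (10 µM minus vehicle) as the estimate ± SE. A gene is called higher or lower only where it passed that test. Over all 19576 genes, 7063 had no overlap between the 3 and 3 libraries, called or not. Genes ranked by size were required to have none, so for them it is no separate result. List counts of 1 or 2 genes are those of the full set of 6 libraries, and many of them moved by 1 to 3 genes when a library was left out.

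**Figure D1:**
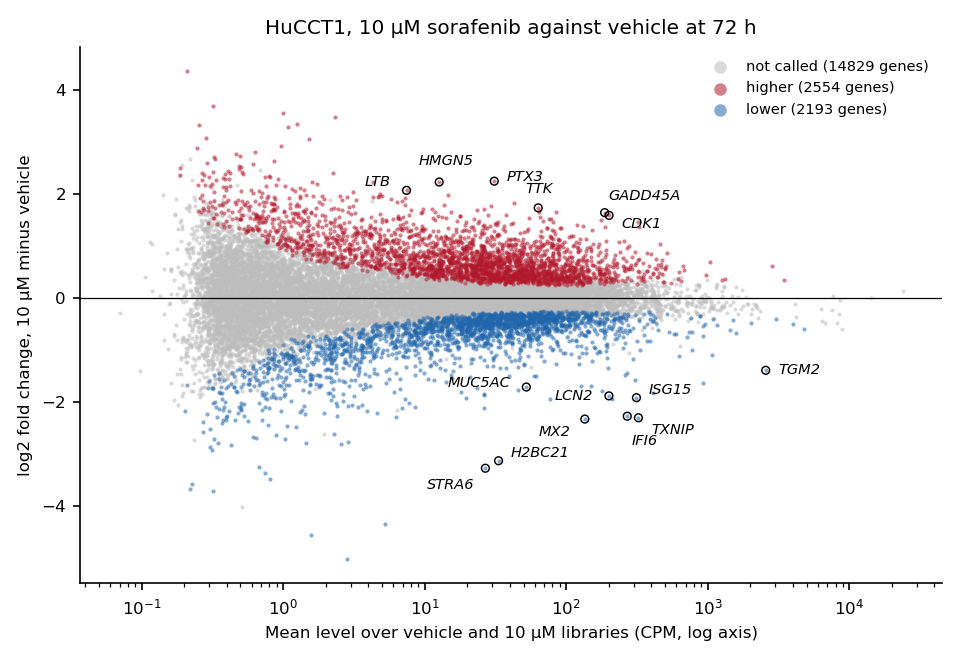
Each point is one of the 19576 genes tested, by its mean level over the 6 libraries (CPM, log axis) and its log2 fold change at 10 µM against vehicle; red genes were called higher, blue genes lower and grey genes were not called. The named antiviral, histone, retinoid and mucin genes lie below the line and TTK, CDK1, HMGN5, PTX3, LTB and GADD45A above it.

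Promoter sequences of 5 antiviral genes are shown because that list held the most uniform fall. They are RefSeq promoter sequences (GRCh38.p14) read 5′ to 3′ along the gene; the bases lie before the annotated start, and capitals mark each match on either strand to GAAANNGAA, a core of the interferon-stimulated response element (overlapping matches merge).
IFI6, chr1:27672257-27672368 (minus strand): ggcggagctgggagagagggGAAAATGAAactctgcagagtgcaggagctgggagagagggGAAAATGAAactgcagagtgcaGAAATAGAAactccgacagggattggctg
ISG15, chr1:1013364-1013424 (plus strand): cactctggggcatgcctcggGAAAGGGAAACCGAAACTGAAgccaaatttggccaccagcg
RSAD2, chr2:6865786-6865834 (plus strand): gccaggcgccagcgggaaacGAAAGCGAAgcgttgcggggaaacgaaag
IFI44L, chr1:78620264-78620403 (plus strand): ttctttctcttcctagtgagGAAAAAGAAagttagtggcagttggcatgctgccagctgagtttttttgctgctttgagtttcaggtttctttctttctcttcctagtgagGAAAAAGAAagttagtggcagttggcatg
IFIT1, chr10:89392488-89392549 (plus strand): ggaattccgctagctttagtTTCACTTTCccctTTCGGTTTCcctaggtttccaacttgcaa
A match stood in 18 of the 27 listed interferon genes that have an entry in the promoter table and in 8.29% of all 27305 promoters of the same length. A match is a description of the letters and says nothing about binding in these cells.

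Antiviral genes fell as a group. All 35 listed members of the type I interferon response were tested, 30 were called lower, none was called higher, and the median log2 fold change was -1.11 against 0.009 over all genes. IFI6, a mitochondria-associated survival protein, stood at 529, 408 and 407 CPM in the vehicle libraries and at 118, 105 and 55.03 CPM at 10 µM (log2 fold change -2.27 ± 0.24, adjusted p = 2.04e-05). ISG15, the ubiquitin-like modifier of this response, went from 571, 555 and 363 CPM to 149.6, 159.5 and 85.2 CPM (-1.92 ± 0.24, adjusted p = 7.07e-05). In both genes each 10 µM library lay below every vehicle library. The GTPase MX2 read 261, 212 and 205 CPM with vehicle and 60.8, 48.5 and 25.4 CPM at 10 µM (-2.33 ± 0.24, adjusted p = 2.21e-05). RSAD2, which encodes the radical SAM enzyme viperin, read 37.7, 28.9 and 27.3 CPM and 9.34, 9.92 and 5.26 CPM (-1.93 ± 0.20, adjusted p = 8.75e-06). The groups did not overlap in either gene, and the lowest value in each was that of 10 µM replicate 3.

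The fall covered both the antiviral effectors, with 23 of 25 called lower, and the ISG15 conjugation and ADP-ribosylation genes listed with them, with 7 of 10. IFI44L fell from 333 ± 65.9 to 87.0 ± 30.0 CPM (-1.93 ± 0.24), IFIT1, which binds foreign RNA ends, from 461 ± 128 to 155 ± 47.1 CPM (-1.57 ± 0.21), and IFI35 from 90.2 ± 4.16 to 41.7 ± 8.81 CPM (-1.11 ± 0.13). DTX3L and PARP9, partners in a ubiquitin ligase, were at -1.01 ± 0.11 and -1.22 ± 0.14, HERC6 at -1.32 ± 0.19 and PARP14 at -0.68 ± 0.12. Among the 5 members not called were IFITM3 at -0.51 ± 0.32, HERC5 at 0.30 ± 0.44, TRIM25 at -0.15 ± 0.14 and UBA7 at -0.19 ± 0.10. HERC5 is named here after its values were seen. Between 28 and 30 members remained lower in number when any single library was left out, and 30 without replicate 3 of both groups.

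The machinery upstream did not move as one. Of 39 tested genes of interferon signalling, 5 were higher and 13 lower, with a median of -0.035. The lower ones held transcription factors and nucleic acid sensors: IRF7 fell from 155 ± 26.02 to 82.1 ± 17.5 CPM (-0.92 ± 0.15, adjusted p = 4.36e-04), STAT2 from 228 ± 37.3 to 145 ± 15.8 CPM (-0.66 ± 0.12), the DNA sensor IFI16 from 178 ± 17.2 to 114 ± 9.92 CPM (-0.64 ± 0.10), and the RNA sensors IFIH1 and DHX58 by 0.74 and 0.70. RIGI, another RNA sensor, was at -0.82 ± 0.19, and IRF9, a DNA-binding partner of STAT2, was not called (-0.28 ± 0.17). JAK2, a kinase of cytokine receptors, rose from 18.2, 19.3 and 21.9 CPM to 43.2, 39.9 and 53.6 CPM with no overlap (1.21 ± 0.12, adjusted p = 4.47e-06). The receptor chain IFNAR1 rose by 0.38, and the adaptor STING1 from 9.91 ± 1.37 to 16.2 ± 0.0529 CPM (0.71 ± 0.12); JAK1 and STAT3 were at 0.02 ± 0.14 and 0.00 ± 0.14 and were not called. Of the ligands, IFNE read 24.8, 25.2 and 14.7 CPM with vehicle and 9.09, 8.91 and 2.87 CPM at 10 µM (-1.61 ± 0.37, adjusted p = 0.00789), a call lost when genes of low count were not filtered out. The lambda interferons IFNL2 and IFNL3, near-identical copies whose reads can be split between them, were below 1 CPM on average in both groups. Only 3 signalling genes were higher without vehicle replicate 1, vehicle replicate 2, 10 µM replicate 1 or 10 µM replicate 3.

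Of 18 genes of MHC class I presentation, 4 were lower and 1 higher, with a median of -0.25. The share called in either direction was near that of all genes, and the called members leaned lower. NLRC5, the activator of class I genes, fell from 29.8 ± 2.71 to 17.4 ± 1.49 CPM (-0.77 ± 0.14), the peptide transporter subunit TAP2 from 129 ± 14.2 to 93.1 ± 6.10 CPM (-0.47 ± 0.10), and the trimming peptidase ERAP2 rose from 149 ± 14.8 to 204 ± 17.7 CPM (0.46 ± 0.11). B2M, the shared light chain, read 918, 714 and 891 CPM with vehicle and 585, 552 and 725 CPM at 10 µM, overlapped and was not called (-0.44 ± 0.22, adjusted p = 0.160). HLA-B was not called either (-0.43 ± 0.16, adjusted p = 0.0541), though it was under 7 of the 14 alternative settings. Leaving out 10 µM replicate 1 left 2 lower members, and leaving out 10 µM replicate 3 gave 7.

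Cell division genes rose together. Of 44 tested genes of mitosis, 40 were called higher and none lower (median 1.09), including all 22 of the spindle, kinetochore and cytokinesis genes. The kinase TTK, which runs the spindle checkpoint, stood at 29.6, 28.7 and 29.9 CPM in the vehicle libraries and 108, 116 and 68.7 CPM at 10 µM (1.73 ± 0.14, adjusted p = 1.37e-06). CDK1, the kinase that drives entry into mitosis, went from 91.9, 102 and 107 CPM to 347, 359 and 200.2 CPM (1.59 ± 0.16, adjusted p = 7.35e-06). Every treated library was above every vehicle library in both genes, and 10 µM replicate 3 was the lowest of the treated ones. BUB1B rose from 27.8 ± 6.51 to 80.6 ± 14.2 CPM (1.54 ± 0.15), the centromere chaperone HJURP from 51.0 ± 4.57 to 129 ± 31.8 CPM (1.34 ± 0.15), NUF2 of the kinetochore by 1.51, the cytokinesis scaffold ANLN by 1.36 and the topoisomerase TOP2A by 1.46. CCNB1 was higher by 0.80 (adjusted p = 0.0235), a call lost without vehicle replicate 1 or 2 or 10 µM replicate 1 or 2, and MKI67, the proliferation marker, by 0.71 (adjusted p = 0.00561). The 4 members not called were PLK1 (0.62 ± 0.31), FOXM1 (0.51 ± 0.25), FZR1 (0.23 ± 0.10) and LIN9 (0.33 ± 0.12), the last named after its values were seen. Without single libraries between 31 and 42 members were higher, and without replicate 3 of both groups all 44 were.

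The promoters of CDK1 and CCNB2 are shown as examples of that list, again as RefSeq sequence (GRCh38.p14) before the start. Capitals mark TTTGAA and CCAAT on either strand. TTTGAA has the letters of the cell cycle homology region, which repressor and activator complexes of mitotic genes bind. CCAAT has those of the box bound by NF-Y. The position of a match was not weighed, and a match says nothing about binding in these cells.
CDK1, chr10:60778150-60778205 (plus strand): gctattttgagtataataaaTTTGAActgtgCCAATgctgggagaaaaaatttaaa
CCNB2, chr15:59104896-59105142 (plus strand): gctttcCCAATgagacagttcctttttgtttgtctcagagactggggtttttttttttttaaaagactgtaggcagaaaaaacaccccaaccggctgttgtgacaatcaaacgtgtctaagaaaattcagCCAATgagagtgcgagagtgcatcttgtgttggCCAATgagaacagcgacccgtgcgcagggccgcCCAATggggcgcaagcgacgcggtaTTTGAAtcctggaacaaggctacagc
Of the 37 listed mitosis genes in the promoter table, 24 held TTTGAA and 25 held CCAAT, and 18 held both; over all promoters the shares were 15.4%, 35.7% and 6.08%. CCNB2, shown for its promoter and chosen after its values were seen, was higher at 10 µM by 1.02 on the log2 scale.

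DNA replication and repair genes rose as well. Of 47 replication genes tested, 34 were higher and none lower (median 0.73), and of 26 genes of repair by recombination 22 were higher and 1 lower (median 0.94). RAD51AP1, which promotes strand pairing in recombination, read 41.6, 37.2 and 45.0 CPM with vehicle and 139, 144 and 104 CPM at 10 µM (1.65 ± 0.12, adjusted p = 6.43e-07). The groups did not overlap. BARD1, the partner of BRCA1, rose from 12.8 ± 1.20 to 35.9 ± 3.09 CPM (1.49 ± 0.11), the helicase BLM by 1.37 and the Fanconi protein FANCI by 1.299. In replication, DSCC1, which helps load the sliding clamp, rose from 7.30 ± 1.64 to 23.2 ± 3.76 CPM (1.66 ± 0.17), the ligase LIG1 by 0.87, the ribonucleotide reductase subunit RRM2 by 1.03 and the transcription factor E2F1 by 0.73. The helicase subunits MCM5 and MCM7 were not called (0.13 ± 0.09 and 0.01 ± 0.10). PALB2, named after its values were seen, was the 1 repair gene called lower (-0.33 ± 0.11), and that call was lost on leaving out any single library. The replication count lay between 27 and 37 and the repair count between 19 and 21 when single libraries were left out. A replication motif, TTTCCCGC or TTTGGCGC on either strand, which are forms of the E2F site, stood in 18 of 39 listed replication promoters and in 2.31% of all.

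Clustered histone genes went the opposite way. Of 47 listed histone genes 34 were tested, 21 were lower and 3 higher (median -1.38): 13 of 15 H2A and H2B genes and 6 of 8 H3 and H4 genes were lower. H2BC21 (chromosome 1, 149884459 to 149886652, GRCh38) read 47.4, 68.4 and 63.5 CPM with vehicle and 6.15, 6.98 and 7.44 CPM at 10 µM (-3.13 ± 0.15, adjusted p = 4.80e-09), the largest fall of the list. H2BC5 fell from 41.3 ± 6.94 to 11.3 ± 0.603 CPM (-1.87 ± 0.16), H2AC6 from 90.3 ± 9.64 to 31.9 ± 8.03 CPM (-1.504 ± 0.15), H4C8 from 11.2 ± 0.685 to 2.55 ± 0.578 CPM (-2.12 ± 0.20) and the linker histone H1-2 from 87.3 ± 23.8 to 30.7 ± 4.24 CPM (-1.51 ± 0.21). The 3 that rose are histones whose messages are made outside the clusters: CENPA of the centromere (1.01 ± 0.16), H2AZ1 (0.75 ± 0.16) and H1-10 (0.40 ± 0.12); the H3.3 gene H3-3B was not called (-0.12 ± 0.09). The H1-10 call was lost without vehicle replicate 1, vehicle replicate 3 or 10 µM replicate 2. Messages of clustered histones mostly end in a stem-loop and not in a poly(A) tail, and the labels name an mRNA library workflow, so these counts follow the part of the messages such libraries hold. Clustered histone genes are also near-identical copies that can share reads. Between 17 and 19 members were lower without single libraries and 18 without replicate 3 of both groups.

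HMGN5, a nucleosome-binding protein of the high-mobility-group family, had the second-largest rise among the genes ranked by size (chromosome X, 81113701 to 81201942, GRCh38). It stood at 3.81, 5.22 and 4.43 CPM with vehicle and 24.3, 24.6 and 13.7 CPM at 10 µM, without overlap (2.23 ± 0.21, adjusted p = 3.85e-06). Of the 10 listed chromatin-bound HMG genes, 6 were higher and none lower, HMGB2 from 152 ± 15.1 to 319 ± 71.1 CPM (1.07 ± 0.16) and HMGN2 from 398 ± 23.1 to 598 ± 123 CPM (0.58 ± 0.13). HMGA1 was not called (-0.38 ± 0.23).

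**Figure D2:**
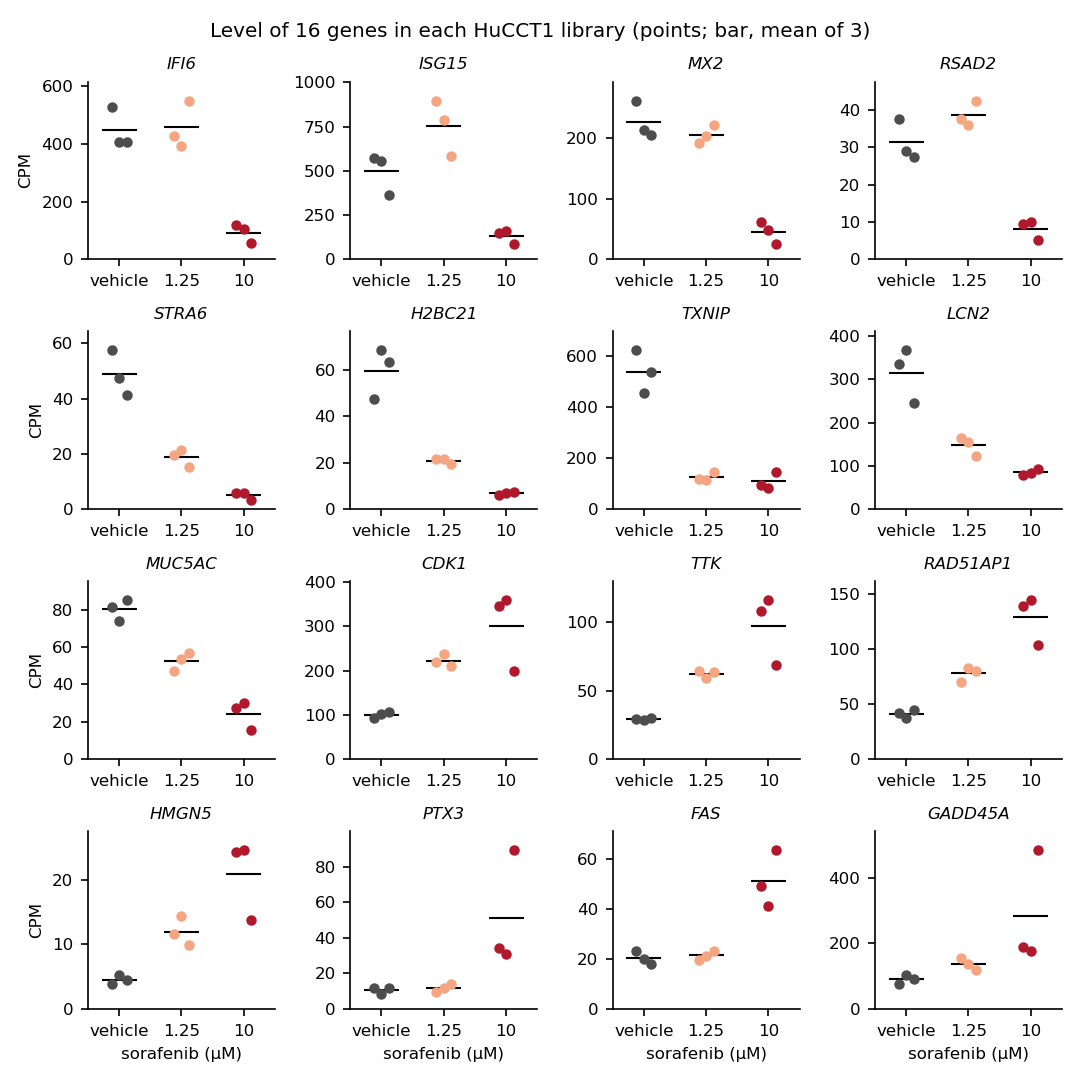
Level of 16 genes (CPM, axis from 0) in each HuCCT1 library with vehicle, 1.25 µM and 10 µM sorafenib; points are libraries and bars the mean of 3. In every panel the 3 libraries at 10 µM lie apart from the 3 vehicle libraries, and IFI6, ISG15, MX2 and RSAD2 are lower at 10 µM than with vehicle or at 1.25 µM.

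Genes that brake the cell cycle and p53 targets rose in part. Of 26 p53 targets tested, 9 were higher and 1 lower. GADD45A, a stress and growth-arrest gene, read 76.6, 104 and 92.1 CPM with vehicle and 190.2, 176 and 484 CPM at 10 µM (1.64 ± 0.32, adjusted p = 0.00305). FAS, the death receptor, read 23.2, 19.9 and 17.9 CPM and 49.2, 41.3 and 63.4 CPM (1.331 ± 0.14, adjusted p = 1.01e-05). Neither overlapped, and 10 µM replicate 3 was the highest for both; without it GADD45A was at 1.02. CCNG1 rose by 0.93, the damage-recognition gene DDB2 by 1.06 and MDM2, the inhibitor of p53, by 0.73. CDKN1A, the main p53 target that stops the cycle, read 56.5, 87.1 and 120.2 CPM with vehicle and 85.3, 88.4 and 102 CPM at 10 µM, overlapped and was not called (0.06 ± 0.20, adjusted p = 0.860). Of 15 G1 control genes 7 were higher and 2 lower: RB1 rose by 0.68, CDK2 by 0.69 and the inhibitor CDKN2D by 0.86, and the inhibitor CDKN2B fell from 227 ± 26.5 to 144 ± 8.97 CPM (-0.66 ± 0.10).

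Genes of apoptosis were called about as often as all genes (24.2%), in both directions. In the BCL2 family of 16 genes 3 were lower and 1 higher, with BMF, which triggers death on loss of attachment, falling from 14.4 ± 1.13 to 7.01 ± 0.583 CPM (-1.04 ± 0.14); MCL1 (0.25 ± 0.16), BCL2L1 (0.07 ± 0.10) and BAX (0.08 ± 0.09) were not called, nor was the death inducer BCL2L11 (-0.13 ± 0.13). Of 22 genes of death receptor signalling 3 were higher and 4 lower. The death ligand TNFSF10 fell from 65.3 ± 11.4 to 29.9 ± 6.46 CPM (-1.125 ± 0.18), its decoy TNFRSF11B by 0.74, and the caspase inhibitor BIRC2 rose from 128 ± 12.3 to 206 ± 7.45 CPM (0.69 ± 0.10). Leaving out single libraries moved these small counts: the higher BCL2 members numbered none without vehicle replicate 1 or 3 and 3 without 10 µM replicate 1, and the lower death receptor genes 2 without 10 µM replicate 1.

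The pathway that sorafenib targets showed few changes in messages. Of 35 tested genes of the MAPK cascade, its feedback inhibitors and its output, 4 were higher and 1 lower. The transcription factor ETV1 rose from 10.8 ± 2.55 to 24.7 ± 0.935 CPM (1.19 ± 0.15), and the phosphatase DUSP2 fell from 11.9 ± 2.04 to 7.63 ± 0.182 CPM (-0.64 ± 0.14). DUSP6, an ERK-induced phosphatase, read 190.3, 283 and 232 CPM with vehicle and 343, 361 and 226 CPM at 10 µM and was not called (0.40 ± 0.17, adjusted p = 0.0989). CCND1 (-0.31 ± 0.12), SPRY4 (-0.06 ± 0.12), ETV4 (-0.13 ± 0.10), ETV5 (0.33 ± 0.17), FOSL1 (0.39 ± 0.15) and EGR1 (-0.39 ± 0.22) were not called either. DUSP6 and FOSL1 were, however, called higher under 4 of the 14 alternative settings. CCND1 was called lower under 3, ETV5 higher under 2 and EGR1 lower under 1. None of the 5 tested kinases among the 13 listed sorafenib targets was called by edgeR or DESeq2 (none had an unadjusted p under 0.05): BRAF was at -0.02 ± 0.13, and the VEGF receptor gene KDR had fewer than 10 counts over the 6 libraries. Without 10 µM replicate 3 the lower MAPK members numbered 5 and the lower target kinases 1, and without vehicle replicate 2 the MAPK members called were 7 higher and 3 lower. In the ERBB and MET list (21 tested, 2 higher and 1 lower) ERBB2 fell from 80.1 ± 3.61 to 60.9 ± 1.83 CPM (-0.40 ± 0.09) and the ligand NRG1 rose from 5.79 ± 0.114 to 10.3 ± 2.94 CPM (0.83 ± 0.18), and EGFR was not called (-0.21 ± 0.14). The lower ERBB count was 4 without 10 µM replicate 3, and the higher one was 1 without vehicle replicate 1 or 2. Of 11 genes of the MYC network 4 were lower and 1 higher: MXD3 rose from 15.7 ± 2.01 to 39.8 ± 8.92 CPM (1.35 ± 0.15), MAX fell by 0.56, and MYC went from 137 ± 28.6 to 91.2 ± 29.6 CPM and was not called (-0.59 ± 0.21, adjusted p = 0.0540), though it was under 8 of the 14 alternative settings. Among 17 AP-1 and immediate-early genes KLF2 was the 1 higher, from 13.2 ± 4.83 to 26.2 ± 5.62 CPM (1.01 ± 0.22), and 1 was lower, which became 4 without vehicle replicate 1.

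**Figure D3:**
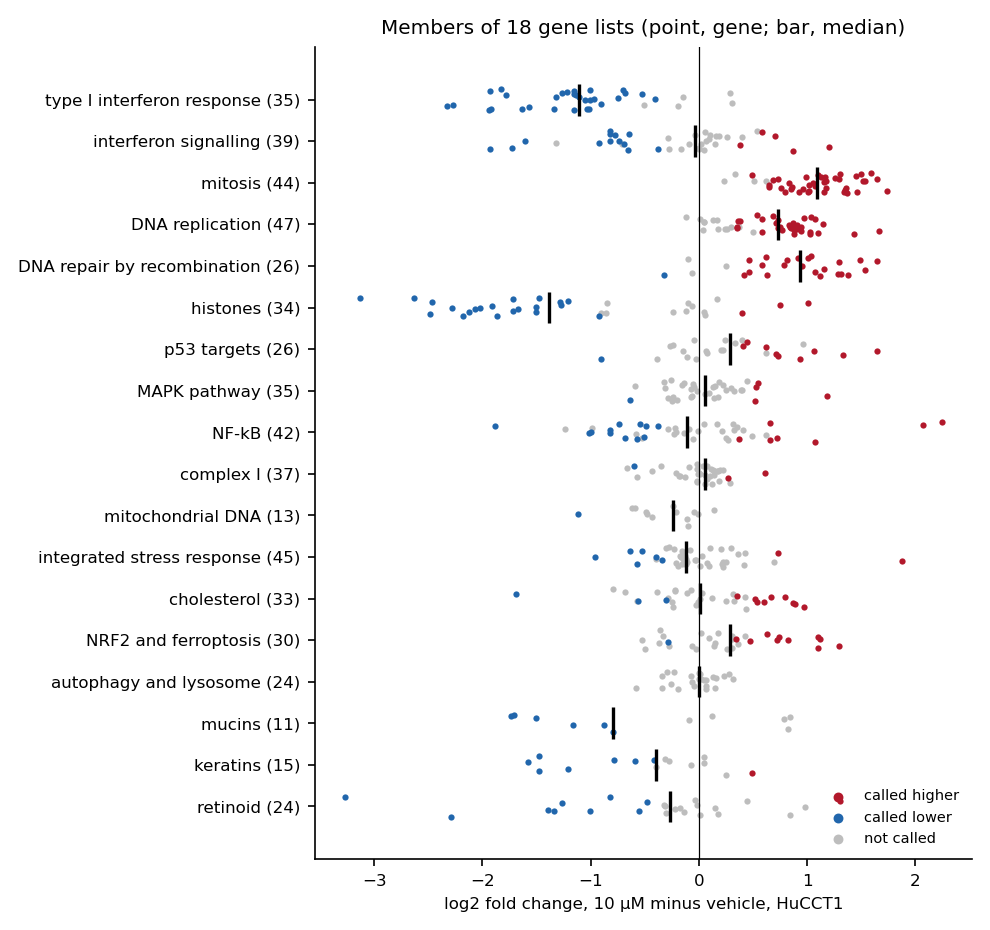
Each point is a tested member of one of 18 gene lists (number tested in brackets) by its log2 fold change at 10 µM against vehicle; red and blue points were called higher or lower, grey ones were not, and the bar is the median. The medians of the interferon response and the histones lie at -1.11 and -1.38, those of mitosis and recombination repair at 1.09 and 0.94, and most other medians lie near 0.

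Inflammatory and acute-phase genes were mixed. Of 42 NF-kB targets and factors, 12 were lower and 7 higher. LCN2, the iron-binding lipocalin, read 335, 367 and 245 CPM with vehicle and 79.7, 83.8 and 93.5 CPM at 10 µM (-1.88 ± 0.14, adjusted p = 6.43e-07). PTX3, a secreted pattern-recognition protein (chromosome 3, 157436789 to 157443628, GRCh38), moved the other way, from 11.7, 8.44 and 12.1 CPM to 34.1, 30.9 and 89.2 CPM (2.25 ± 0.36, adjusted p = 9.05e-04). Neither gene overlapped between groups, and 10 µM replicate 3 held the highest PTX3 value by a wide margin; without it PTX3 was at 1.59. The cytokine IL6 fell from 89.3 ± 19.8 to 44.1 ± 2.65 CPM (-1.02 ± 0.14), CXCL8 from 93.4 ± 21.5 to 58.1 ± 7.73 CPM (-0.69 ± 0.15) and TNFAIP2 from 499 ± 34.4 to 282 ± 36.1 CPM (-0.82 ± 0.11), while lymphotoxin beta, LTB, rose from 2.87 ± 1.02 to 12.03 ± 4.41 CPM (2.07 ± 0.31) and IL23A from 11.7 ± 3.19 to 24.7 ± 6.06 CPM (1.07 ± 0.20). Among 12 complement components 4 were lower and none higher: C1S fell from 73.3 ± 1.73 to 33.7 ± 1.11 CPM (-1.121 ± 0.10), C1R by 0.93, CFB by 0.999 and C3 from 901 ± 151 to 539 ± 52.7 CPM (-0.74 ± 0.14). The regulators C4BPB and CD55 rose by 0.86 and 0.70.

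TXNIP fell, and its level at 10 µM lay in the same range as at 1.25 µM. TXNIP is an arrestin that holds back glucose uptake and is induced by the glucose-sensing factors MondoA (MLXIP) and ChREBP (MLXIPL). Its RefSeq promoter (GRCh38.p14) holds a pair of E-box-like letters, CACGNG, 5 bases apart, the element those factors bind, shown in capitals.
TXNIP, chr1:145996631-145996687 (minus strand): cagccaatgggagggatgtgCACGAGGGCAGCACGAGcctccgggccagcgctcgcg
Only 0.0732% of all promoters hold such a pair on either strand, and the ARRDC4 promoter window does not. TXNIP read 622, 454 and 539.8 CPM with vehicle and 96.3, 85.1 and 147 CPM at 10 µM (-2.30 ± 0.18, adjusted p = 8.02e-07), against 119, 113 and 145 CPM at 1.25 µM. The 2 doses overlapped, and their difference was -0.20 ± 0.17 on the log2 scale (10 µM minus 1.25 µM, adjusted p = 0.414). Its relative ARRDC4 fell from 44.8 ± 8.15 to 23.3 ± 2.097 CPM (-0.95 ± 0.13), MLXIP from 90.4 ± 4.66 to 60.2 ± 2.41 CPM (-0.59 ± 0.09) and MLXIPL by 0.99. On the glucose-sensing list of 8 genes 4 were thus lower. The 1 higher was the thioredoxin reductase TXNRD1 (0.72 ± 0.16), which is listed there but is not a glucose sensor.

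Genes of the respiratory complexes changed little against vehicle. Of 37 complex I subunit genes encoded in the nucleus 2 were higher and 1 lower, and of 40 genes of complexes II to V 5 were higher and 1 lower. NDUFB6 rose from 52.6 ± 3.35 to 80.1 ± 7.55 CPM (0.61 ± 0.10), NDUFV3 fell from 43.1 ± 5.28 to 28.4 ± 1.56 CPM (-0.60 ± 0.12), and SDHD of complex II rose from 137 ± 11.8 to 238 ± 19.8 CPM (0.80 ± 0.12). None of the 13 messages of mitochondrial DNA was higher and 1 was lower. MT-CO1 read 22791, 29927 and 15493 CPM with vehicle and 23708, 30602 and 21018 CPM at 10 µM, overlapping and not called (0.14 ± 0.24, adjusted p = 0.713). The 1 called, MT-ND3, was at -1.119 ± 0.35 (adjusted p = 0.0391), a call lost without vehicle replicate 1, vehicle replicate 2 or any one 10 µM replicate; without vehicle replicate 3 the list had 3 lower genes. TWNK, the helicase that copies mitochondrial DNA, fell from 50.7, 49.3 and 47.8 CPM to 22.8, 23.8 and 26.2 CPM with no overlap (-1.02 ± 0.09, adjusted p = 2.85e-06), and 5 of 23 genes of mitochondrial maintenance were lower with it, among them the coactivator PPRC1 (-0.65 ± 0.10). That count was 8 without 10 µM replicate 3. The higher genes of complexes II to V numbered 3 without vehicle replicate 1 or 10 µM replicate 1 and 1 without 10 µM replicate 2.

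Of 26 genes of the TCA cycle and glutamine use 7 were higher and none lower, with the pyruvate dehydrogenase kinase PDK3 rising from 3.99 ± 0.622 to 10.2 ± 1.20 CPM (1.34 ± 0.15), IDH2 from 16.8 ± 2.42 to 33.7 ± 2.22 CPM (1.003 ± 0.12) and GLUD1 by 0.63. Of 22 glycolysis genes 6 were higher and 1 lower. LDHA, which makes lactate, rose from 531 ± 70.6 to 812 ± 151 CPM (0.61 ± 0.15), ENO2 from 51.1 ± 5.26 to 81.7 ± 3.65 CPM (0.68 ± 0.11), and the lactate exporter SLC16A3 fell from 249 ± 18.8 to 166 ± 16.6 CPM (-0.58 ± 0.12). The glucose transporter SLC2A1 was not called (-0.33 ± 0.16). The higher glycolysis genes numbered 3 without vehicle replicate 1 or 10 µM replicate 1. Hypoxia targets outside glycolysis (19 tested, 5 higher and 2 lower) included the collagen crosslinker LOX, which rose from 14.01 ± 0.680 to 42.4 ± 15.04 CPM (1.59 ± 0.19), and VEGFA, which fell from 332 ± 23.4 to 169 ± 20.8 CPM (-0.97 ± 0.11).

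Stress genes that mark amino acid shortage or misfolded protein were mostly not called against vehicle. Of 45 genes of the integrated stress response 6 were lower and 2 higher. ATF4, its transcription factor, read 673, 888 and 701 CPM with vehicle and 596, 663 and 764 CPM at 10 µM and was not called (-0.16 ± 0.14, adjusted p = 0.423). The amino acid transporter SLC7A5 fell from 211 ± 25.6 to 109 ± 6.34 CPM (-0.96 ± 0.10) and SLC7A1 by 0.64, and the secreted hormone STC1 rose from 1.41 ± 0.126 to 5.18 ± 0.900 CPM (1.88 ± 0.22). DDIT3 (0.36 ± 0.36), ASNS (0.69 ± 0.30) and GDF15 (-0.15 ± 0.45), 3 widely used markers of this response, were not called. Leaving out 10 µM replicate 1 gave 3 lower genes, leaving out 10 µM replicate 3 gave 13, and there were 11 without replicate 3 of both groups, and 5 higher ones without 10 µM replicate 2. Of 18 genes of the unfolded protein response in the endoplasmic reticulum 2 were higher, MANF (0.85 ± 0.23) and SDF2L1 (0.63 ± 0.20), with none without vehicle replicate 1 or 2, 1 without vehicle replicate 3 or 10 µM replicate 3 and 4 without 10 µM replicate 2. Of 12 heat-shock genes 3 were lower, with DNAJA1 falling from 291 ± 24.98 to 196 ± 40.9 CPM (-0.57 ± 0.14). No gene of the 24 of autophagy and lysosome was called by edgeR, 1 had an unadjusted p under 0.05, DESeq2 called none, and 4 were lower without 10 µM replicate 3. Of 35 ribosomal protein genes 3 were lower, a number that became 6 without vehicle replicate 3 or 10 µM replicate 3 and 10 without both.

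Sterol synthesis genes leaned up. Of 33 cholesterol genes 9 were higher and 3 lower, and all 7 of the called synthesis genes were higher: HMGCS1, which makes the precursor of mevalonate, rose from 168 ± 45.1 to 311 ± 8.70 CPM (0.89 ± 0.15) and MSMO1 from 177 ± 20.2 to 281 ± 12.4 CPM (0.67 ± 0.10). INSIG1 rose by 0.79 and the sterol carrier STARD4 from 57.9 ± 5.78 to 114 ± 3.10 CPM (0.97 ± 0.09), and the exporter ABCG1 fell from 4.38 ± 0.233 to 1.43 ± 0.872 CPM (-1.69 ± 0.38). Without replicate 3 of both groups 14 were higher. Of 27 fatty acid genes 4 were higher and 6 lower, with SREBF1 falling from 108 ± 6.93 to 61.0 ± 9.003 CPM (-0.82 ± 0.11); the lower count was 3 without vehicle replicate 2, 1 without vehicle replicate 3 and 2 without 10 µM replicate 1. Of 30 genes of the NRF2 response and iron handling 10 were higher and 1 lower. GCLC, which catalyses the first step of glutathione synthesis, read 47.4, 42.8 and 49.0 CPM with vehicle and 99.4, 78.3 and 120.5 CPM at 10 µM without overlap (1.10 ± 0.14, adjusted p = 4.05e-05). GCLM rose by 0.74 and the iron transporter SLC11A2 by 0.62.

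Part of the secretory and retinoid genes of the epithelium fell. Of 11 mucin and trefoil genes tested 6 were lower and none higher (median -0.80). MUC5AC, a gel-forming mucin, read 81.5, 74.1 and 85.0 CPM with vehicle and 27.4, 30.3 and 15.5 CPM at 10 µM (-1.71 ± 0.17, adjusted p = 7.35e-06). The membrane mucins MUC4 and MUC1 fell from 58.3 ± 2.13 to 20.5 ± 1.04 CPM (-1.502 ± 0.11) and from 54.0 ± 5.04 to 29.4 ± 3.89 CPM (-0.88 ± 0.12), and MUC16 was not called (-0.10 ± 0.10). STRA6, the cell-surface importer of retinol (chromosome 15, 74179466 to 74212267, GRCh38), read 57.5, 47.4 and 41.4 CPM with vehicle and 5.71, 5.92 and 3.35 CPM at 10 µM (-3.27 ± 0.21, adjusted p = 3.85e-07), the largest fall among the genes ranked by size. Neither gene overlapped between groups. Of 24 retinoid genes 9 were lower and 1 higher: RARRES1 fell from 10.5 ± 2.58 to 2.13 ± 0.331 CPM (-2.29 ± 0.23), the transglutaminase TGM2 from 3722 ± 708 to 1421 ± 171 CPM (-1.39 ± 0.15) and the retinal reductase DHRS3 from 175 ± 6.76 to 73.0 ± 4.66 CPM (-1.26 ± 0.10), and ALDH1A1, which makes retinoic acid, rose from 3.18 ± 1.22 to 7.78 ± 2.33 CPM (1.301 ± 0.26). Without single libraries between 5 and 6 mucins and between 9 and 10 retinoid genes were lower.

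Keratins and biliary markers leaned lower, and the other lists of epithelial state did not shift in one direction. Of 15 keratins 7 were lower and 1 higher: KRT7, a bile duct keratin, fell from 5773 ± 708 to 3846 ± 506 CPM (-0.59 ± 0.13) and KRT17 from 57.0 ± 3.51 to 24.6 ± 2.47 CPM (-1.21 ± 0.10), and KRT19 and KRT8 were not called (-0.08 ± 0.11 and 0.04 ± 0.17). Of 27 genes of the epithelial-mesenchymal transition 5 were higher and 8 lower. VIM, a mesenchymal filament, rose from 181 ± 29.9 to 355 ± 36.0 CPM (0.97 ± 0.14), TGFBI fell from 1032 ± 115 to 518 ± 43.6 CPM (-0.99 ± 0.12), and the epithelial genes ESRP1 and EPCAM rose by 0.63 and 0.40, while CDH1, which encodes E-cadherin, fell by 0.36, a call lost without vehicle replicate 3 or 10 µM replicate 1 or 2. The lower count was 5 without vehicle replicate 2 or 10 µM replicate 2, 4 without vehicle replicate 3 and 3 without 10 µM replicate 1. Among 12 integrins 3 were higher and 4 lower, with ITGB3 falling from 5.80 ± 2.18 to 1.416 ± 0.645 CPM (-2.06 ± 0.33) and ITGB1 from 1362 ± 180.3 to 957 ± 29.9 CPM (-0.51 ± 0.12); the higher ones numbered none without vehicle replicate 2, 1 without vehicle replicate 1, 10 µM replicate 1 or 10 µM replicate 3 and 5 without vehicle replicate 3, and the lower ones 2 without 10 µM replicate 1 or 2. Of 28 proteases and their inhibitors 6 were higher and 8 lower. The sheddase ADAM8 rose from 73.4 ± 5.18 to 191 ± 73.8 CPM (1.38 ± 0.18), the matrix protease MMP7 fell from 384 ± 99.98 to 137 ± 58.1 CPM (-1.49 ± 0.29) and the anticoagulant receptor THBD from 106 ± 16.4 to 53.3 ± 12.6 CPM (-0.996 ± 0.15); without vehicle replicate 3 the lower ones numbered 5 and without 10 µM replicate 1 they numbered 4. The tight junction protein CLDN2 fell from 7.62 ± 1.35 to 1.61 ± 0.898 CPM (-2.21 ± 0.31), 1 of 3 lower and 2 higher among 15 junction genes, and the higher ones numbered 1 without vehicle replicate 1 or 2 or 10 µM replicate 3 and 5 without 10 µM replicate 2. Lineage factors of bile duct and liver (16 tested, 2 higher and 2 lower) included SOX4, which fell from 218 ± 11.01 to 143 ± 27.1 CPM (-0.61 ± 0.12), and FOXA1, which rose from 11.2 ± 1.52 to 15.8 ± 0.689 CPM (0.50 ± 0.12). Of 14 biliary markers, which overlap these lists, 5 were lower and 1 higher, and 3 were lower without 10 µM replicate 1 or 2. The drug efflux pump ABCC3 fell from 207 ± 16.7 to 108 ± 15.1 CPM (-0.94 ± 0.12) and the oxidase CYP2S1 rose from 24.5 ± 1.93 to 43.0 ± 2.37 CPM (0.81 ± 0.10); 4 of 18 drug transport and metabolism genes were lower and 2 higher, and 2 were lower without vehicle replicate 1 or 2 or 10 µM replicate 1 or 3. Only 6 of 16 cornified envelope genes were tested, of which 2 were lower and 1 higher.

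Protein-coding genes ranked by size of change, with a mean of 10 CPM or more in one group and no overlap, added some that no list held. After PTX3, HMGN5 and LTB the largest rises were the serpin SERPINB7 (1.98 ± 0.22), C1orf21 (1.92 ± 0.16), the small GTP-binding protein GEM (1.84 ± 0.37), the centromere guardian SGO2 (1.84 ± 0.31), ARHGAP33 (1.79 ± 0.21), HMSD (1.78 ± 0.22), the oxytocin receptor OXTR (1.76 ± 0.12) and, after TTK, CCDC15 (1.72 ± 0.16). Without 10 µM replicate 3 GEM was at 1.13, and without replicate 3 of both groups SGO2 was at 2.45. OXTR read 14.05, 13.0 and 12.8 CPM with vehicle and 41.0, 41.2 and 53.7 CPM at 10 µM. Among the largest falls not yet described were ODF3B (-2.12 ± 0.21), the trypsinogen PRSS2 (-2.09 ± 0.21), which has close copies, and thymidine phosphorylase TYMP (-1.94 ± 0.13). TYMP read 143, 121 and 102 CPM with vehicle and 34.7, 32.4 and 28.4 CPM at 10 µM. Absence of overlap was a condition of this ranking, so it is no further evidence for OXTR or TYMP. Among 3189 long non-coding RNAs tested 192 (6.02%) were higher and 223 (6.99%) lower, smaller shares than over all genes. LINC02475 rose from 0.209 ± 0.193 to 2.30 ± 0.242 CPM (3.34 ± 0.45), ALMS1-IT1 from 1.39 ± 0.683 to 4.86 ± 2.37 CPM (1.77 ± 0.36) and BMAL2-AS1 by 1.98, while LINC01226 fell from 4.999 ± 2.90 to 0.738 ± 0.0977 CPM (-2.77 ± 0.40), MTUS1-DT from 11.6 ± 2.60 to 2.98 ± 1.16 CPM (-1.93 ± 0.26) and KLHDC7B-DT by 1.99. Without 10 µM replicate 3 BMAL2-AS1 was at 1.304, without vehicle replicate 3 LINC02475 was at 3.95, and without replicate 3 of both groups ALMS1-IT1 was at 1.08. How strand was treated in counting is not stated, and reads of a transcript inside or across another gene cannot be told apart from that gene's reads.

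The 10 µM libraries were next compared with the 3 libraries at 1.25 µM, which do not enter the contrast above. Of the 19576 genes, 5518 (28.2%) differed between doses, 2827 (14.4%) higher at 10 µM and 2691 (13.7%) lower. Scaled by library size alone, 4408 of 5693 called genes were higher, and the median of all genes moved by 0.178 on the log2 scale. Interferon genes separated the doses: 30 of 35 were lower at 10 µM than at 1.25 µM and none higher, and 30 or 31 were under the other scalings. ISG15 read 897, 789.7 and 581 CPM at 1.25 µM (10 µM minus 1.25 µM -2.52 ± 0.24, adjusted p = 2.43e-05), IFI6 read 427, 394 and 551 CPM (-2.30 ± 0.24) and MX2 read 191, 203 and 221 CPM (-2.19 ± 0.24). Each of these was above all 3 values at 10 µM. Against vehicle, which both doses share as control, the list had 30 lower genes at 10 µM and, at 1.25 µM, 4 higher and none lower. The low level was not particular to the high dose: the mean log2 level of the list, relative to vehicle, was -0.88, -0.98 and -1.50 in the 10 µM libraries and -1.77, -1.98 and -1.82 in the libraries given 1.25 µM with IACS-010759.

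Mitosis genes, in contrast, stood close at the 2 doses: 4 of 44 were higher at 10 µM than at 1.25 µM and none was lower, although 16 were higher without 10 µM replicate 3 and 13 with library-size scaling. Against vehicle the list counted 40 higher genes at 10 µM (median 1.09) and 39 at 1.25 µM (median 0.95). The rise of replication and repair genes was also present at the low dose. Against vehicle, 34 replication genes were higher at 10 µM (median 0.73) and 41 at 1.25 µM (median 0.93). For repair by recombination these were 22 (median 0.94) and 20 (median 0.84). The share of all genes called at 1.25 µM against vehicle is not given here. The list counts at 1.25 µM, with those of the interferon genes above, therefore lack that background. Histones were lower at the high dose for 17 of 34 members, H2BC21 reading 21.8, 21.5 and 19.3 CPM at 1.25 µM (-1.61 ± 0.14, adjusted p = 1.09e-05). All 13 messages of mitochondrial DNA were lower at 10 µM than at 1.25 µM under each of the 3 scalings, MT-CO1 reading 63719, 55987 and 34132 CPM at 1.25 µM (-1.03 ± 0.24, adjusted p = 0.00573); 1 was called when genes of low count were not filtered out. Complex I subunits were lower for 19 of 37, a count that dropped to 7 with library-size scaling, and DNA replication genes for 16 of 47, which became 8. The mitochondrial share of counts was 17.9% ± 4.83 at 1.25 µM and 9.88% ± 1.63 at 10 µM (SD, n = 3 each). Among called protein-coding genes that reached 10 CPM on average at one dose and did not overlap, the largest rises from 1.25 to 10 µM were those of ABI3BP (2.58 ± 0.28), NDRG1 (2.11 ± 0.54), PTX3 (2.11 ± 0.36), DNAJB9 (1.95 ± 0.40) and TRIM29 (1.61 ± 0.25), and the largest falls those of ISG15, IFI6, RSAD2 (-2.23 ± 0.20), MX2 and IFNE (-1.995 ± 0.37). The NDRG1 call was lost without 1.25 µM replicate 1 or 2, and without 10 µM replicate 3 NDRG1 was at 1.28, PTX3 at 1.45 and DNAJB9 at 1.17. Without 1.25 µM replicate 1 the number of genes called between doses was 3567, and without 1.25 µM replicate 2 it was 3472.

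**Figure D4:**
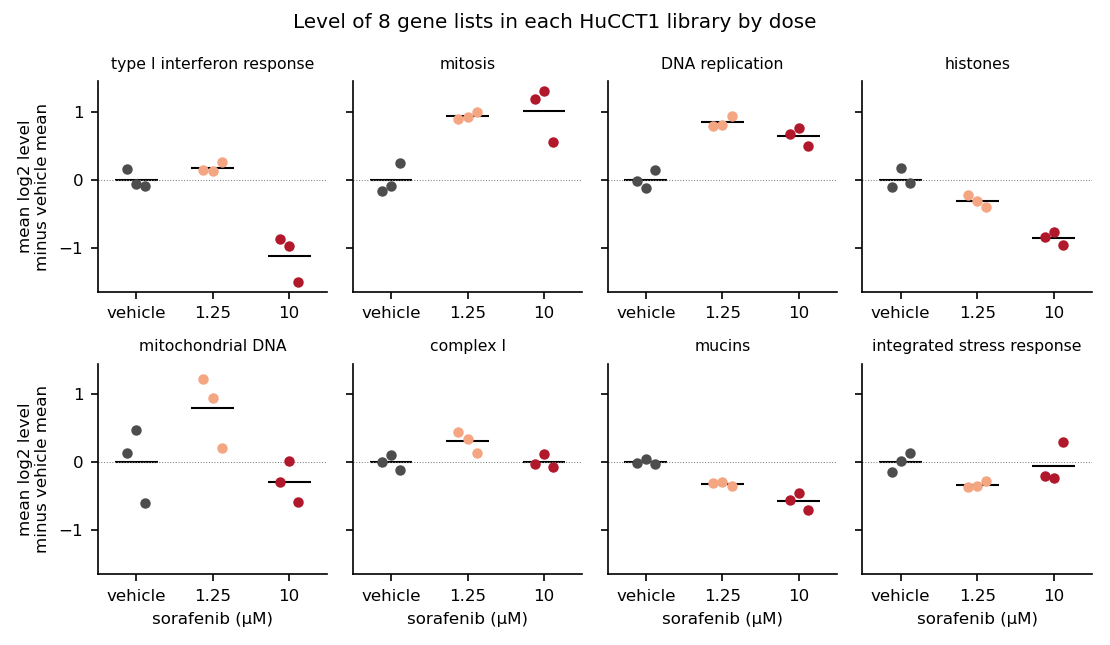
Each point is a HuCCT1 library with vehicle, 1.25 µM or 10 µM sorafenib, by the mean log2 level of the tested members of a list (CPM plus 0.5) minus the mean of the vehicle libraries; bars are means of 3. The interferon response is low at 10 µM and not at 1.25 µM, histones and mucins step down with dose, mitosis genes are high at both doses, and messages of mitochondrial DNA spread widely in all 3 arms.

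OCUG-1 cells given the same 10 µM for the same time answered differently, and with more genes called. Of 20511 genes tested in OCUG-1 against its own vehicle, 12943 were called, 6645 higher and 6298 lower. These counts are the background for the OCUG-1 list counts below. The test of the difference between the lines' responses, one fit over all 24 libraries, called 10047 of 22944 genes (43.8%), 5305 with a higher response in HuCCT1 and 4742 with a lower one. The lines differ in medium as well as in origin, so line and medium cannot be told apart. In mitosis genes 40 of 44 had a higher response in HuCCT1 and none a lower one; in OCUG-1 alone 38 were called lower and 2 higher. TTK rose in HuCCT1 and was -1.59 in OCUG-1 on the log2 scale (difference 3.40 ± 0.19, adjusted p = 2.92e-14). Interferon genes had a lower response in HuCCT1 for 27 of 35 and a higher one for 2. In OCUG-1 10 rose, RSAD2 among them (1.97), and 9 fell, IFI44L among them (-2.63). Both OCUG-1 counts were near the shares of all OCUG-1 genes called in those directions. The difference was -3.83 ± 0.39 for RSAD2 (adjusted p = 1.23e-08) and 0.78 ± 0.39 for IFI44L, which was not called.

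Stress genes also divided the lines. The response was lower in HuCCT1 for 31 of 45 genes of the integrated stress response, 15 of 18 of the unfolded protein response and 11 of 12 heat-shock genes. In OCUG-1 37, 17 and 12 of them were called higher, where 6645 of all 20511 genes tested were higher and 6298 lower. SLC7A5 fell by 0.96 in HuCCT1 and rose by 2.25 in OCUG-1 (difference -3.14 ± 0.14, adjusted p = 6.29e-16). Messages of mitochondrial DNA fell in OCUG-1 for all 13, and 11 of 13 had a higher response in HuCCT1. The mucins split, with 4 responses higher and 4 lower in HuCCT1: MUC5AC was 1.35 in OCUG-1 (difference -2.98 ± 0.62, adjusted p = 5.30e-04). STRA6 fell in both lines, by more in HuCCT1 (difference -1.92 ± 0.23, adjusted p = 1.18e-07). PRSS2 (-2.34 in OCUG-1) and ODF3B (-2.19) fell in both and their responses were not called different (0.33 ± 0.35 and 0.14 ± 0.29).

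**Figure D5:**
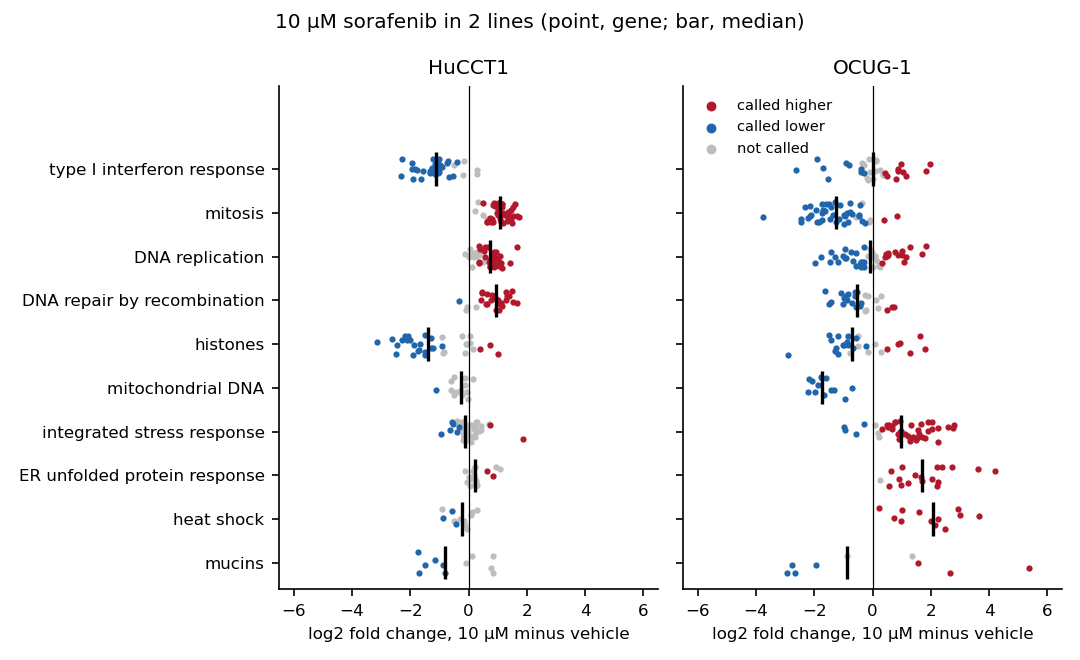
Each point is a member of one of 10 gene lists by its log2 fold change at 10 µM against vehicle in HuCCT1 (left) and OCUG-1 (right), coloured by its call in that line, with the median as a bar. Mitosis genes lie right of 0 in HuCCT1 and mostly left of 0 in OCUG-1, and stress, unfolded protein and heat-shock genes lie near 0 in HuCCT1 and mostly right of 0 in OCUG-1.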

How the data were processed

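Total RNA was extracted with TRIzol, made into libraries by an mRNA workflow and read as 150-base pairs, per the labels' protocols. The authors deposited 2 tables of whole-number counts of reads per gene, 1 for each line; the tools named in the submitters' processing notes are bcl2fastq, fastp 1.3.2, HISAT2 2.2.2, featureCounts (Subread 2.1.1), MultiQC 1.33, R 4.4.1 and DESeq2 1.42.1, on GRCh38. For the annotation version, strand setting and multiply mapped reads, the entry is the same: not given in the sources used here. All 24 columns matched a sample, and 0 columns were unmapped.

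Gene counts were tested with edgeR 4.0.16 (R 4.3.3; TMM scaling, filterByExpr with a minimum count of 10, robust quasi-likelihood F-test) in 1 fit over the 12 HuCCT1 libraries, so that all 4 arms share the estimate of spread; the line difference came from 1 fit over 24 libraries with an interaction term. P-values were adjusted by Benjamini-Hochberg over all genes tested, at a threshold of 0.05; CPM values are the deposited counts divided by TMM-scaled library size, and precision is set by 3 libraries a group and by 18272014 to 29958426 counts a library. Code was tested on simulated data. Symbols, biotypes and gene positions came from GENCODE (GRCh38) and promoters from RefSeq (GRCh38.p14; 250 bases before to 50 after each start), matched by symbol. The labels do not state that same-numbered libraries are pairs, so they were not paired. Deviations of same-numbered libraries of vehicle and 10 µM correlated at 0.025, 0.078 and 0.113. Those of differently numbered libraries correlated at -0.094 to 0.035. A replicate block was therefore fitted as an alternative.

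Genes were named from the 12 largest rises and 12 largest falls (protein-coding, at least 10 CPM, no overlap), up to 4 called and 2 uncalled members of each list role, 5 each way for dose and line, 3 each way for long non-coding RNAs, and a fixed panel; some genes that this rule names are not reported here. The comparison, the 50 gene lists and the panel were chosen with earlier results of these data known, so none is independent evidence. Alternatives were DESeq2 1.42.0, library-size and upper-quartile scaling, other filters, a fit of the compared groups alone, a replicate block, each library left out and, chosen after seeing the data, replicate 3 of both groups left out. The combination arms entered the fits and are described only for the interferon list.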

Additional observations from a re-analysis of the deposited data

Results flagged for a closer look

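The response to 10 µM sorafenib was tested for a difference between HuCCT1 and OCUG-1 by the interaction term of the edgeR fit over 24 libraries, and 10047 genes passed. All values below are HuCCT1 minus OCUG-1 responses on the log2 scale, and medium differs with the line. Among the genes named for the size of their change in HuCCT1, those whose response was higher there were ARHGAP33 (4.53), TTK (3.40), SGO2 (2.79), HMGN5 (2.70), HMSD (2.17), CCDC15 (1.54), OXTR (1.41) and SERPINB7 (1.07). Those whose response was lower there were RSAD2 (-3.83), IFI6 (-2.99), GEM (-2.31), MX2 (-2.13), STRA6 (-1.92), PTX3 (-1.83), TXNIP (-1.71), H2BC21 (-1.54), H4C8 (-1.20), RARRES1 (-0.97) and TYMP (-0.52). GEM and PTX3 rose in both lines, and more in OCUG-1; without HuCCT1 10 µM replicate 3 their differences were -2.99 and -2.48. The difference of RARRES1, of H4C8 and of TYMP lost its call when single libraries were left out, RARRES1 without HuCCT1 vehicle replicate 1 (-0.77), H4C8 without OCUG-1 10 µM replicate 1 (-0.85) and TYMP without HuCCT1 vehicle replicate 1 (-0.38), among others.

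The largest line differences, among called protein-coding genes of at least 10 CPM in 1 group or more, were chosen for their size and are a description. SPDEF (6.17), PIF1 (5.73), LRP1B (5.55), SLC28A3 (5.35) and ZNF69 (5.14) had the highest values; SPDEF and ZNF69 were not called in HuCCT1 itself, and the ZNF69 difference was not called without OCUG-1 vehicle replicate 3 (4.62). HSPA6 (-7.94), KRT34 (-7.71), THBD (-7.18), SPRR2D (-6.87) and NHLH1 (-6.42) had the lowest. KRT34 averaged 0.0198 CPM in the OCUG-1 vehicle libraries and had counts there in replicate 3 alone, so its fitted value is no bound. SPRR2D was at -7.62 and NHLH1 at -7.06 without OCUG-1 vehicle replicate 1, and SPRR2D at -6.26 without HuCCT1 vehicle replicate 2. HSPA6, a heat-shock gene with close copies that can share reads, was 8.51 in OCUG-1 and 0.50 ± 0.36 in HuCCT1, where it was not called. THBD was 6.25 in OCUG-1 and fell in HuCCT1 (-0.996 ± 0.15).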

How the results depend on the processing

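The number of genes called between 10 µM and vehicle was 5255 with DESeq2, 4572 with library-size scaling, 4855 with upper-quartile scaling, 4606 without a filter, 3396 with a fit of those groups alone, 5201 with a replicate block and 3416 to 4696 when single libraries were left out. Between doses it was 3472 to 6285 when single libraries were left out, and 6004 with the replicate block. In the line difference the replicate block gave 9989. The mitochondrial share of counts (10 µM minus vehicle, in percentage points) lay between -3.046 and 0.451 when single libraries were left out, with the opposite sign, 0.451, without vehicle replicate 2. Of the 165 called genes named for this comparison 156 kept their call under each of up to 14 alternatives, and 9 lost it under at least 1. Of the 43 named genes not called, 19 were called under at least 1 alternative. None changed direction with a call. With the replicate block CCNB1 lost its call. With 3 libraries a group, and 10 µM replicate 3 apart from the other 2, small changes were the least certain.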
